A study of Mus musculus with 10 samples.

Results

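The genes described here encode the HSP70 and HSP90 chaperones of the cytosol, the helpers that work with them, the heat shock transcription factor and a chaperone dedicated to myosin. They were taken by symbol as a list of 10 genes, namely Hspa1a, Hspa1b, Hspa8, Hsp90aa1, Hsp90ab1, Hsph1, Dnaja1, Dnajb1, Hsf1 and Unc45b, and all 10 were found among the 54232 genes of the deposited table. RNA had been sequenced from gastrocnemius, a mixed and mostly fast calf muscle, of 5 homozygous desmin knock-out mice (Des -/-) and 5 wild-type littermates (Des wt/wt) of the strain B6J.129Sv-Destm1Cba/Cscl at 3 months of age. The Destm1Cba allele is constitutive, so desmin, the main intermediate filament protein of muscle, was missing from all tissues and from early development on. The labels and methods name gastrocnemius, while other passages of the paper name gastrocnemius and plantaris, a small neighbouring calf muscle, so the samples may hold both. The labels name no treatment. The methods speak of pooled RNA from 5 muscles per genotype, but the table has 1 column per mouse, and each column was used as 1 replicate, so that p-values measure the spread between these columns.

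HSP70 proteins bind stretches of unfolded protein and release them in a cycle driven by ATP. J-domain proteins such as Dnaja1 and Dnajb1 bring substrates to HSP70 and start the cycle, while HSP110 proteins such as Hsph1 exchange the nucleotide and end it. HSP90 takes over substrates at a later stage of folding, and in striated muscle it works together with UNC45B, which folds the motor domain of myosin and is needed for the assembly of thick filaments. Under stress HSF1 binds heat shock elements, which are inverted repeats of GAA and TTC, and switches on the inducible members of these families.

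Promoter sequences from RefSeq (GRCm38.p6) covered 6 of the 10 genes. The next lines show the 150 bases before the start of transcription for the inducible HSP70 pair, for Hsph1 and Dnaja1, which also hold a match, and for Unc45b, which holds none. Capitals mark matches to GAANNTTC or TTCNNGAA, which read the same on both strands.
Hspa1a: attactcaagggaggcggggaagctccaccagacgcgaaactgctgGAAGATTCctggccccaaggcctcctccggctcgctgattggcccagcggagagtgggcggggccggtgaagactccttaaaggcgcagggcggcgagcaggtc
Hspa1b: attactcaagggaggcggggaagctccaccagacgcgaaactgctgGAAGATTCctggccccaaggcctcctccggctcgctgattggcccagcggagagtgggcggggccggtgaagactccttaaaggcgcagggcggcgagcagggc
Hsph1: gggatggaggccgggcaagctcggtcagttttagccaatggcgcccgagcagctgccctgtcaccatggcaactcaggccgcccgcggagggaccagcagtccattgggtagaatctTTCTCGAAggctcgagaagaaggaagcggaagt
Dnaja1: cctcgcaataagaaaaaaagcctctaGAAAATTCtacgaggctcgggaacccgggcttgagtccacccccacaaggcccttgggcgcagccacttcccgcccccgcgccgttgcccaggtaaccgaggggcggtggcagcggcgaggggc
Unc45b: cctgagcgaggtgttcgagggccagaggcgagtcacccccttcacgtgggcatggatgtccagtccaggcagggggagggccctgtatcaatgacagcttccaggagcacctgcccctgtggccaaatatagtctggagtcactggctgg

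These stretches lie at chr17:34972157-34972306 (Hspa1a, minus strand), chr17:34959239-34959388 (Hspa1b, minus strand), chr5:149636337-149636486 (Hsph1, minus strand), chr4:40722318-40722467 (Dnaja1, plus strand) and chr11:82911103-82911252 (Unc45b, plus strand). The Hspa1a and Hspa1b promoters were identical at 149 of 150 bases, and their match starts 104 bases before the start of transcription. Hsph1 in addition held the longer run TTCTGGAAAGTTC, with 3 alternating units, just behind its start. A match to GAANNTTC or TTCNNGAA was found in 12.8% of all 32851 promoter windows within the 250 bases before the start, and a run of 3 such alternating units, each 2 bases from the next, in 0.603% of windows from 250 bases before to 50 after the start, where a run also counts as a match to the shorter form. Dnajb1 held no match in its windows. Promoters of the other 4 genes (Hspa8, Hsp90aa1, Hsp90ab1 and Hsf1) were not analysed here.

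The near-identity of Hspa1a and Hspa1b extends to their transcripts. Of all distinct 50-base stretches in the annotated transcripts of Hspa1a, 58.8% also occur in Hspa1b, and 62.3% of those of Hspa1b occur in Hspa1a. Reads that lie wholly in shared sequence cannot be assigned to 1 of the genes by their sequence, so the levels of this pair are uncertain. How reads that map to more than 1 gene were counted is not given in the sources used here. Hspa8 shared 38.6% and Hsp90aa1 47.5% of its stretches with other annotated genes, mostly processed copies, compared with 3.44% for Hsp90ab1 and none for Hsph1, Hsf1 and Unc45b on the same strand. Unc45b overlaps Unc45bos on the opposite strand, and Hspa1a overlaps Gm20481 in the same way. Whether reads were counted by strand is not given in the sources used here, so reads of these overlaps could belong to either gene.

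The deposited table holds rlog (regularized log) values in log2 units, adjusted to library size and shrunken towards each gene's average, so that differences can be smaller than log2 fold changes of counts. Such values give neither counts nor depth. The target gene Des ranged from 11.76 to 11.89 in knock-out and from 16.10 to 17.74 in wild-type mice (n = 5 each). Wild-type mouse 3 stood apart from the other samples, with a mean Pearson r of 0.9817 over tested genes to mice of its genotype, compared with 0.9886 to 0.9911 for the other wild-type mice and 0.9955 to 0.9969 among knock-out mice. Its summed linear values were 1.48 times the median of all mice. Results for the 10 chaperone genes that rest on this mouse are therefore given with and without it. For other single genes and for single lists, values are given with all mice only. Tests with limma covered genes whose mean reached log2(10), and p-values were adjusted over all 14289 tested genes. All 10 chaperone genes passed this limit.

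At an adjusted p under 0.05, Unc45b was lower in desmin knock-out muscle and none of the other 9 genes passed (limma). That is 1 of 10 genes, compared with 13.7% of all tested genes, of which 7.7% were called higher and 5.99% lower. Without adjustment, 3 of the 10 genes (Unc45b, Hsf1 and Hsph1) had a p under 0.05, compared with 27.6% of tested genes. Means were lower for 7 and higher for 3 of the 10 genes, where 50.5% of tested genes had a lower mean, with a median difference of -0.23 log2 units compared with -0.0029 over all tested genes. In 2 of the 10 genes, Unc45b and Hsf1, each knock-out value was under each wild-type value, which was the case for 6.97% of tested genes, and 14.4% did not overlap in either direction. The plot of the values in each mouse shows that in most of these genes the genotypes differed by less than the wild-type mice did among themselves.

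**Figure D1:**
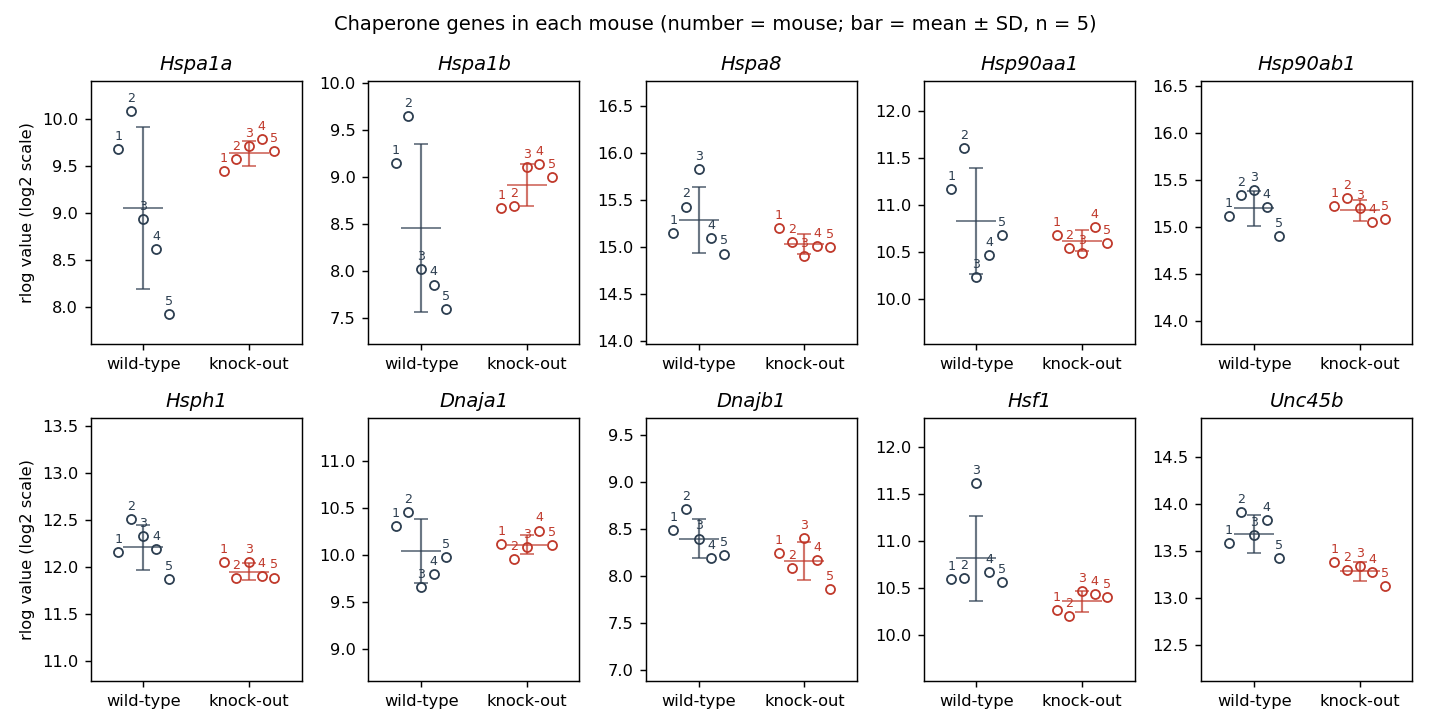
Each panel plots the rlog value (log2 scale, 2.8 log2 units in every panel) of 1 chaperone gene in 5 wild-type and 5 desmin knock-out mice, with the mouse number beside each point and bars for mean ± SD. Hspa1a ranges from 7.92 to 10.08 in wild-type and from 9.44 to 9.78 in knock-out mice, while Unc45b and Hsf1 separate the genotypes.

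Unc45b (ENSMUSG00000018845, chromosome 11, 82910550 to 82943403 of GRCm38) encodes the myosin chaperone of striated muscle. Its rlog values were 13.38, 13.29, 13.34, 13.27 and 13.12 in desmin knock-out mice 1 to 5 and 13.58, 13.91, 13.67, 13.83 and 13.42 in wild-type mice 1 to 5. All knock-out mice lay below all wild-type mice, although knock-out mouse 1 and wild-type mouse 5 were separated by a small gap. The means were 13.28 ± 0.10 (SD, n = 5) and 13.68 ± 0.20 (SD, n = 5), a difference of -0.40 log2 units (standard error, SE, 0.11, 95% interval -0.63 to -0.17, limma adjusted p = 0.0235). By exact permutation of the mice p was 0.00794, two-sided, which is the smallest p that 5 mice against 5 allow. Without wild-type mouse 3 the log2 difference was -0.41 (limma adjusted p = 0.013). The adjusted p rose above 0.05 when wild-type mouse 2 was left out (0.0606), when knock-out mouse 2, 4 or 5 was left out (0.0563, 0.0594 and 0.0749), and after quantile normalization (log2 difference -0.30, adjusted p = 0.0762).

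Unc45a, the form of UNC45 found in all tissues, did not pass the test. Its rlog values ranged from 8.36 to 8.70 in knock-out and from 8.31 to 8.88 in wild-type mice, with a difference of -0.06 log2 units (SE 0.12, limma adjusted p = 0.763). Within each mouse, Unc45b exceeded Unc45a by 4.80 ± 0.08 (SD) in the knock-out and by 5.14 ± 0.14 (SD) in the wild-type group (n = 5 each), and such a gap does not depend on the scaling between samples. The gap was smaller in every knock-out mouse than in each of the wild-type mice, and the change of -0.34 passed after adjustment over the 6 pairs of genes compared (exact permutation test, p = 0.00794, adjusted p = 0.0476). It did not pass when knock-out mouse 1, 2, 4 or 5 was left out (adjusted p = 0.0952 each, same exact permutation test). The change was then between -0.35 and -0.31, and the knock-out gaps still lay below all wild-type gaps. With so few mice the exact p moves in coarse steps, so its rise does not measure a loss of the gap.

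Some markers of skeletal muscle fibers were also lower. Of 8 such genes, 3 fell and none rose at an adjusted p under 0.05 (limma), where 5.99% of all tested genes were called lower. The sum of linear values of the 8 lay between 4090000 and 4650000 in knock-out and between 4790000 and 9480000 in wild-type mice, the highest being wild-type mouse 3. None of the 8 was at 0 in the table. In bulk muscle, fewer fibers and less RNA per fiber cannot be told apart, and the part of these markers in the fall of Unc45b was not tested. Myh3 and Myh8, the embryonic and perinatal myosin heavy chains and thus substrates of the UNC45B and HSP90 pair, were higher by 2.25 and 0.85 on the log2 scale (adjusted p under 0.05 for both, limma).

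Hsf1 (ENSMUSG00000022556, chromosome 15, 76477422 to 76501913) encodes the main heat shock transcription factor. Its rlog values were 10.27, 10.21, 10.47, 10.44 and 10.41 in desmin knock-out mice and 10.60, 10.61, 11.62, 10.67 and 10.57 in wild-type mice. The genotypes did not overlap, and wild-type mouse 3 lay far above the 4 other wild-type mice, which kept within a narrow band. The difference of -0.46 log2 units (SE 0.18, 95% interval -0.84 to -0.08) did not pass over all genes (limma adjusted p = 0.106), while exact permutation of the 10 values gave 0.00794 as p. Without wild-type mouse 3, the wild-type SD dropped from 0.45 to 0.04 and the log2 difference to -0.26, and the gene then passed (limma adjusted p = 0.0268).

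Hsf2, Hsbp1l1 and Hsf2bp rose. Of 7 tested genes of a list of heat shock factors and their regulators, 3 were higher in desmin knock-out muscle and none was lower, with a median difference of 0.33 log2 units. Of all tested genes 7.7% were called higher. Hsf2, a second heat shock factor that can pair with HSF1, was at 11.01 ± 0.17 (SD, n = 5) compared with 10.45 ± 0.26 (SD, n = 5), a difference of 0.56 log2 units (limma adjusted p = 0.0102). Hsbp1l1, which resembles the HSF1-binding protein Hsbp1, rose by 0.81 (adjusted p = 0.0006) and Hsf2bp, a binding partner of HSF2, by 0.64 (adjusted p = 0.0173, limma for both). Hsbp1 itself had a difference of 0.02 log2 units (limma adjusted p = 0.883).

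Hspa1a and Hspa1b encode stress-inducible HSP70 proteins and lie next to each other on chromosome 17 (34969190 to 34972156, ENSMUSG00000091971, and 34956436 to 34959238, ENSMUSG00000090877). The rlog values of Hspa1a were 9.44, 9.57, 9.71, 9.78 and 9.66 in knock-out mice and 9.68, 10.08, 8.93, 8.61 and 7.92 in wild-type mice. Knock-out mice were nearly uniform, whereas wild-type mice 1 and 2 lay at or above the knock-out mean and wild-type mice 3, 4 and 5 below every knock-out mouse. For Hspa1b the values were 8.67, 8.70, 9.11, 9.14 and 9.0 in knock-out and 9.15, 9.65, 8.02, 7.86 and 7.60 in wild-type mice, with the same order of low and high wild-type mice except that all knock-out mice lay below wild-type mice 1 and 2.

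For neither gene of the pair did the difference between genotypes pass. Hspa1a had a difference of 0.59 log2 units (SE 0.31, 95% interval -0.08 to 1.25, limma adjusted p = 0.24) and Hspa1b one of 0.46 (SE 0.33, 95% interval -0.24 to 1.17, limma adjusted p = 0.385). Intervals of this width leave room for more than a doubling on the rlog scale as well as for no change. When wild-type mouse 2, the highest, was left out, the log2 difference of Hspa1a was 0.85 (limma adjusted p = 0.0535), and when wild-type mouse 5, the lowest, was left out, it was 0.31. For Hspa1b these values were 0.76 (limma adjusted p = 0.0755) and 0.25. Set against Hspa8 within each mouse, the knock-out mean of Hspa1a was above the wild-type mean by 0.84 and that of Hspa1b by 0.72 (0.47 without wild-type mouse 3), which did not pass (exact permutation test, p = 0.0794 and 0.135, adjusted p = 0.159 and 0.202 over 6 pairs).

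The pair varied much more among wild-type than among knock-out mice. The wild-type SD of Hspa1a was 0.86, which is 6.53 times the knock-out SD of 0.13, and this ratio exceeded that of 96.6% of tested genes. For Hspa1b the ratio was 3.97, which exceeded that of 86.2% of tested genes. From the lowest to the highest wild-type mouse, Hspa1a differed 4.47-fold and Hspa1b 4.14-fold on the rlog scale. Leaving out wild-type mouse 3 did not narrow the spread, as the wild-type SD was then 0.99 for each of them.

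Immediate-early genes, which respond within minutes to stress, contraction or handling of the tissue, varied among the same mice. Atf3, chosen after its values were seen, was at 12.44 and 11.66 in wild-type mice 1 and 2, at 9.44, 9.32 and 8.92 in wild-type mice 3, 4 and 5, and between 10.13 and 10.69 in knock-out mice. Fos, chosen in the same way, was at 9.99, 9.68, 8.10, 7.86 and 7.98 in wild-type mice 1 to 5. The mean over the 18 genes of an immediate-early list was 9.11, 8.66, 7.90, 8.04 and 8.04 in wild-type mice 1 to 5 and between 8.74 and 9.0 in knock-out mice. Of this list 6 genes were higher and none lower in knock-out muscle (limma, adjusted p under 0.05), namely Egr1 (log2 difference 1.88), Egr2 (1.02), Egr3 (0.87), Jund (0.63), Ier2 (0.62) and Junb (0.61). Of all tested genes 7.7% were called higher. The sum of linear values of the list lay between 17000 and 21500 in knock-out and between 12200 and 29500 in wild-type mice. None of its genes was at 0. The part of these genes in the spread of Hspa1a and Hspa1b was not tested.

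**Figure D2:**
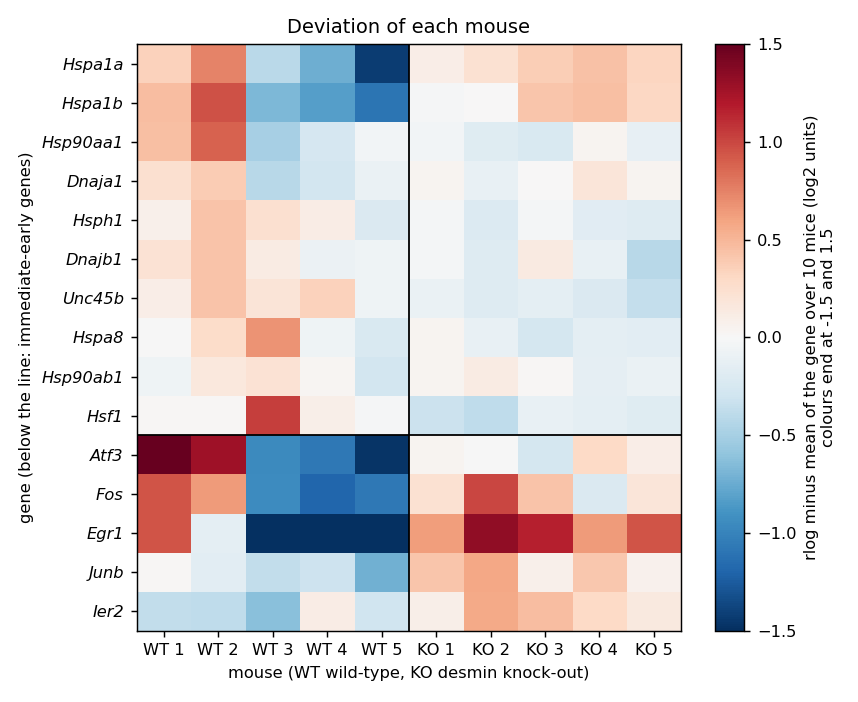
Rows are the 10 chaperone genes and, below the line, 5 immediate-early genes picked from the list of 18. Columns are the mice, and colours give the rlog value minus the mean of the gene over 10 mice in log2 units. Over the whole list, the mean in wild-type mouse 2 (8.66) lay below every knock-out mouse (8.74 to 9.0). Hspa1a, Hspa1b, Hsp90aa1 and Dnaja1 are high in wild-type mice 1 and 2 as are Atf3 and Fos, Hsf1 and Hspa8 are highest in wild-type mouse 3, and knock-out mice are close to each other in most chaperone rows.

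Hspa8 (ENSMUSG00000015656, chromosome 9, 40800984 to 40810087) encodes HSC70, the HSP70 protein that all cells make without stress. Its rlog values were 15.20, 15.05, 14.90, 15.01 and 15.00 in knock-out and 15.15, 15.43, 15.83, 15.09 and 14.93 in wild-type mice. Knock-out and wild-type mice overlapped, and the highest value was again that of wild-type mouse 3. The difference of -0.25 log2 units (SE 0.15, limma adjusted p = 0.316) shrank to -0.12 without that mouse.

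Of the HSP90 genes, Hsp90aa1 (ENSMUSG00000021270, chromosome 12, 110690605 to 110702728) encodes the inducible α form. Its rlog values were 10.68, 10.54, 10.49, 10.77 and 10.60 in knock-out and 11.17, 11.61, 10.23, 10.47 and 10.68 in wild-type mice. As with Hspa1b, wild-type mice 1 and 2 were the highest of all and the knock-out mice lay inside the wild-type range. The log2 difference was -0.22 (SE 0.21, 95% interval -0.66 to 0.23, limma adjusted p = 0.539), which became -0.02 without wild-type mouse 2 and -0.37 without wild-type mouse 3 (limma adjusted p = 0.947 and 0.196). The wild-type SD of 0.56 was 5.05 times the knock-out SD.

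Hsp90ab1 (ENSMUSG00000023944, chromosome 17, 45567775 to 45573271), the constitutive β form, was the most even gene between genotypes. Its rlog values were 15.23, 15.31, 15.20, 15.05 and 15.09 in knock-out and 15.12, 15.34, 15.40, 15.21 and 14.91 in wild-type mice, which overlap almost fully. The log2 difference was -0.02 (SE 0.12, 95% interval -0.27 to 0.23, limma adjusted p = 0.931), and its sign turned to 0.11 after quantile normalization and to 0.03 without wild-type mouse 3. The gap between Hsp90aa1 and Hsp90ab1 within a mouse differed by -0.20 (exact permutation test, p = 0.508), and by -0.40 without wild-type mouse 3.

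None of the helpers of HSP70 passed the test. Hsph1 (ENSMUSG00000029657, chromosome 5, 149614287 to 149636376), the HSP110 exchange factor, had rlog values of 12.05, 11.88, 12.05, 11.91 and 11.89 in knock-out and 12.16, 12.51, 12.33, 12.19 and 11.87 in wild-type mice. In 4 of 5 wild-type mice the value exceeded all knock-out mice, and wild-type mouse 5 was below all of them. The log2 difference was -0.26 (SE 0.11, 95% interval -0.50 to -0.02, unadjusted p = 0.0358, limma adjusted p = 0.147), and without wild-type mouse 5 it was -0.35 and passed (adjusted p = 0.039).

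Dnajb1 (ENSMUSG00000005483, chromosome 8, 83608193 to 83612653), the J-domain protein induced together with HSP70, had rlog values of 8.25, 8.09, 8.41, 8.17 and 7.86 in knock-out and 8.49, 8.71, 8.40, 8.19 and 8.22 in wild-type mice. Of the knock-out mice, 3 of 5 lay below all wild-type mice. The log2 difference was -0.25 (SE 0.13, 95% interval -0.52 to 0.03, limma adjusted p = 0.235). Unlike the other 9 genes it varied about as much in knock-out (SD 0.20) as in wild-type mice (SD 0.21).

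Dnaja1 (ENSMUSG00000028410, chromosome 4, 40722150 to 40737149), the J-domain protein of unstressed cells, had rlog values of 10.12, 9.96, 10.08, 10.26 and 10.11 in knock-out and 10.31, 10.46, 9.66, 9.80 and 9.98 in wild-type mice. Wild-type mice 1 and 2 lay above all knock-out mice and wild-type mice 3 and 4 below them. The log2 difference was 0.06 (SE 0.14, 95% interval -0.24 to 0.37, limma adjusted p = 0.814), and -0.03 without wild-type mouse 3. The gap between Dnajb1 and Dnaja1 within a mouse differed by -0.31 (exact permutation test, p = 0.0635, adjusted p = 0.159 over 6 pairs), and that between Hsph1 and Hspa8 by -0.01 (exact permutation test, p = 0.976).

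**Figure D3:**
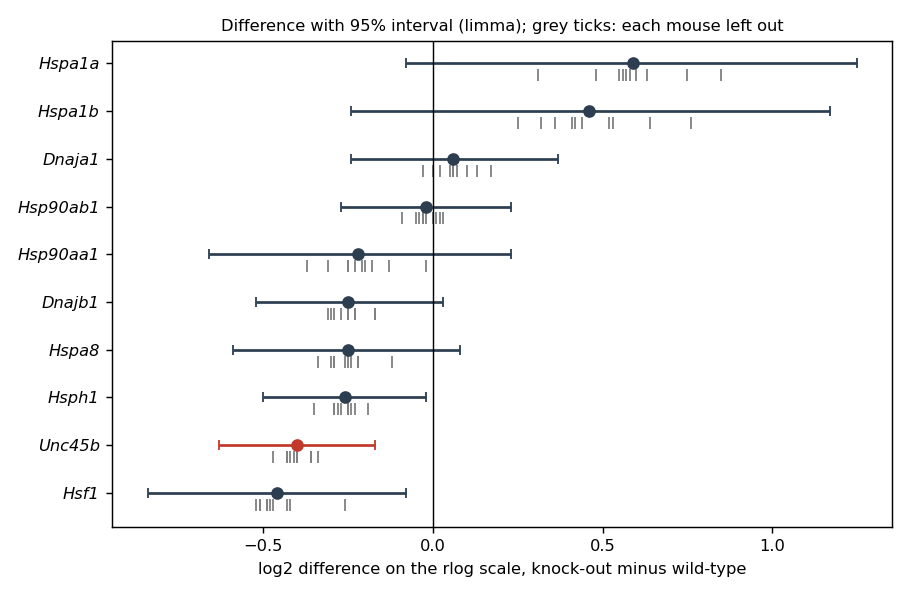
Points give the log2 difference on the rlog scale (knock-out minus wild-type) of each gene with its 95% interval from limma, red for an adjusted p under 0.05, and grey ticks the difference when single mice were omitted. The interval of Unc45b spans -0.63 to -0.17 and that of Hspa1a, the widest but for Hspa1b, -0.08 to 1.25.

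The wild-type mice differed more from each other than the knock-out mice did in all 10 genes, and in 9 of the 10 without wild-type mouse 3. The exception was Hsf1, whose wild-type SD without that mouse was 0.379 times the knock-out SD, compared with 3.98 times with it. With all mice, a wider wild-type spread holds for 82.9% of all tested genes, so the direction is not particular to the chaperones. The wild-type SD was at least 2 times the knock-out SD in 7 of the 10 genes (46.8% of tested genes) and at least 3 times in 6 of them (25.1% of tested genes). The median ratio was 3.29 in the chaperone genes and 1.90 in all tested genes. Without wild-type mouse 3 these medians were 2.60 and 1.37, and 6 of the 10 genes still reached a ratio of 2 (28.3% of tested genes). Wild-type mouse 2 had the highest wild-type value in 7 genes and wild-type mouse 5 the lowest in 7. In the other 3 genes, Hspa8, Hsp90ab1 and Hsf1, wild-type mouse 3 was highest. Both counts of 7 include Hspa1a and Hspa1b, which share much of their transcript sequence. How often the same mice were at the extremes over all tested genes was not counted, so this is not shown to be particular to the chaperones. These ratios are given as a description, since no test of spread was made.

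**Figure D4:**
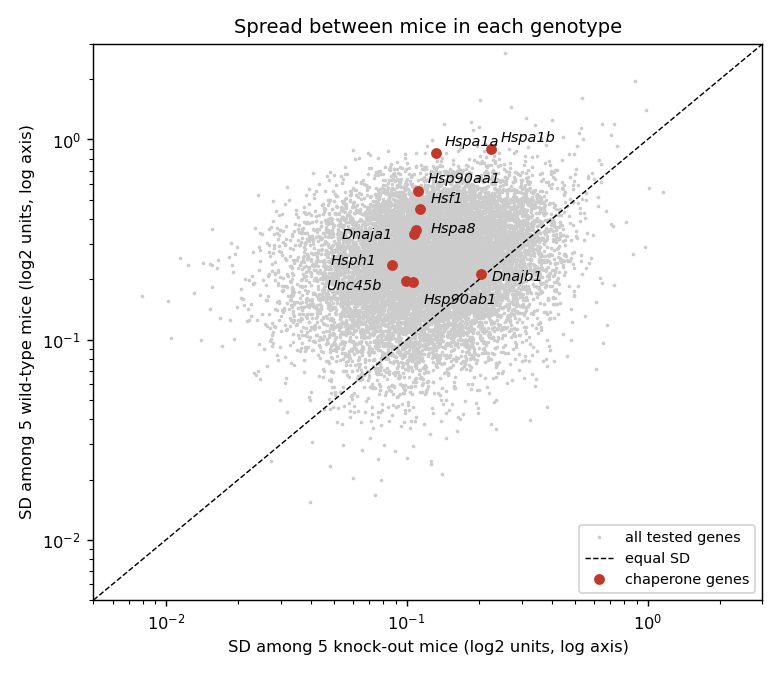
Each grey point is 1 of 14289 tested genes, with its SD among 5 knock-out mice on the horizontal and among 5 wild-type mice on the vertical axis (log2 units, both axes logarithmic). The chaperone genes (red) lie above the dashed line of equal SD, Hspa1a and Hspa1b near the upper edge of the cloud and Dnajb1 close to the line.

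Levels can be compared between genes only per length, for which log2 of the exon length in kb was subtracted from the rlog value. This length joins all annotated exons of a gene and can exceed that of its main transcript. Genes with a long joined length, such as Dnaja1 (8629 bases), Hsph1 (7266) and Hsf1 (7099), may therefore stand too low. On this scale, wild-type muscle held most Hsp90ab1 (13.61 ± 0.19, SD, n = 5), followed by Hspa8 (13.18 ± 0.35) and Unc45b (11.51 ± 0.20), each step being larger than the SD between mice. Hsph1 (9.35 ± 0.24) and Hsp90aa1 (8.86 ± 0.56) did not differ beyond their spread. Hsf1 (7.99 ± 0.45), Hspa1a (7.48 ± 0.86), Hspa1b (6.97 ± 0.89), Dnaja1 (6.94 ± 0.34) and Dnajb1 (6.72 ± 0.21) followed, with each step within the larger SD of the neighbours. The shared stretches of Hspa8, Hsp90aa1 and the Hspa1 pair limit this order, since their levels are too low if reads of such stretches were dropped, and the place of Hspa8 after Hsp90ab1 is uncertain for this reason. In desmin knock-out muscle the order was the same but for Hspa1a (8.06 ± 0.13), which stood before Hsf1 (7.53 ± 0.11).

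Genes with the most similar pattern over the 10 mice were sought by the root mean square (RMS) difference of values after subtraction of each gene's mean. Closest to Hspa1b were Hspa1a (RMS difference 0.179), with which it shares transcript sequence, Abra (0.221), an actin-binding activator of SRF in striated muscle, and Cited2 (0.234), a transcriptional coregulator. Abra had low values in wild-type mice 3, 4 and 5 as well, with 13.67, 13.41 and 13.21 compared with 14.31 to 14.49 in knock-out mice. It was selected for such likeness, so this is no separate result. The nearest genes to Hsp90aa1 were Slc8a1 (0.160), Pggt1b (0.178) and Thbd (0.186). Hspa8 was matched most closely by Rac2 (0.0641), Umps (0.0835) and Fgfrl1 (0.0865). Unc45b had P4ha2 (0.0798), Cnbd2 (0.0916) and Tecpr1 (0.102) nearest to it, each of which was lower in knock-out muscle (log2 differences -0.52, -0.38 and -0.38, adjusted p = 0.00591, 0.0427 and 0.0209 from limma). The match used the mice of both genotypes, so a fall like that of Unc45b was selected for. These p-values are therefore no separate result.

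The wider chaperone network was followed with 11 lists that share some genes. Of 154 tested genes in these lists, leaving out the 10 genes above, desmin knock-out muscle had 11 higher and 6 lower (limma, adjusted p under 0.05), which is 11% compared with 13.7% of all tested genes, and the median log2 difference was -0.01. Without wild-type mouse 3, 32 of them passed, which is 20.8%, compared with 17.5% of all tested genes in the same fit. With all mice, the called genes were spread over 10 of the 11 lists.

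Among the 11 other HSP70 genes, 1 rose and 1 fell, which is 18.2% compared with 13.7% of all tested genes. Hspa2, an HSP70 form best known from testis, was at 9.06, 9.08, 9.09, 8.86 and 9.0 in knock-out and 7.95, 7.89, 7.41, 8.0 and 7.69 in wild-type mice. Its knock-out mice lay far above all wild-type mice, with a difference of 1.23 log2 units (SE 0.12, limma adjusted p = 1.5e-05). Hspa12b, a distant relative made mainly by endothelium, fell by 0.54 (limma adjusted p = 0.00765). Of 8 endothelial markers 5 fell and none rose, where 5.99% of all tested genes were called lower. Their summed linear values were 4950 to 6340 in knock-out and 6540 to 8020 in wild-type mice, with none of the 8 at 0. Their part in the fall of Hspa12b was not tested. The only called member of the 2 other HSP90 genes was Trap1, the HSP90 of mitochondria (log2 difference -0.34, limma adjusted p = 0.013).

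Of 39 other J-domain genes, 3 were higher and 3 lower, which is 15.4% compared with 13.7% of all tested genes. Dnaja4 rose by 0.48 (adjusted p = 0.0119), whereas Dnajc27 (log2 difference -0.46, adjusted p = 0.00663) and Dnajb12 (log2 difference -0.48, adjusted p = 0.0121, limma for all) fell. Sec63 (log2 difference 0.30), a partner of the translocon of the endoplasmic reticulum, and Dnajb5 (-0.32) passed as well.

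Among the cofactors of HSP70 and HSP90, 1 gene passed. Stip1, also called HOP, carries substrates from HSP70 to HSP90. It was lower with a difference of -0.36 log2 units (SE 0.11, limma adjusted p = 0.0429). The genotypes did not overlap, as in 14.4% of all tested genes. Stip1 was the only called gene among 25 tested HSP90 cochaperones (4.0% called, median log2 difference -0.10). It was also the only one among 14 nucleotide exchange factors and tail-binding cofactors of HSP70 (7.14% called, median -0.06). In the group of 14 CCT and prefoldin subunits, which fold actin and tubulin, none passed (limma, median -0.04) and 1 had an unadjusted p under 0.05. Of all tested genes 13.7% passed and 27.6% had an unadjusted p under 0.05. Mitochondrial chaperones and proteases had a lower mean in 11 of 12 genes with a median of -0.14, where 50.5% of all tested genes had a lower mean. Trap1 alone passed, which is 8.33% of the list compared with 13.7% of all tested genes.

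Of 13 factors of myosin folding and sarcomere assembly, 15.4% passed, compared with 13.7% of all tested genes, as 2 rose and none fell. These were Fhl1, a LIM protein of the sarcomere (17.37 ± 0.15 compared with 16.05 ± 0.31, SD, n = 5, log2 difference 1.31, limma adjusted p = 9.9e-05), and the small heat shock protein gene Hspb7 (15.74 ± 0.13 compared with 14.63 ± 0.30, SD, n = 5, log2 difference 1.11, limma adjusted p = 0.00015). Smyd1, a muscle methyltransferase that binds HSP90 and UNC45B, had a difference of -0.32 log2 units and did not pass (limma adjusted p = 0.172), and its highest value was that of wild-type mouse 3 (15.42).

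Of 22 further targets of HSF1 that were tested, 1 was higher (Dnaja4) and 1 lower (Stip1), with a median difference of -0.09 log2 units. The share called was 9.09%, compared with 13.7% of all tested genes. For the chaperones of the endoplasmic reticulum and the unfolded protein response the mean was higher in 22 of 26 genes with a median of 0.23. Of all tested genes 50.5% had a lower mean. An unadjusted p under 0.05 was found for 14 of the 26 genes (27.6% of tested genes). After adjustment only Canx, the lectin chaperone calnexin (log2 difference 0.71, adjusted p = 0.0102), and the stress-induced factor Manf (0.45, adjusted p = 0.00498, limma for both) passed. That is 7.69% of the list, compared with 13.7% of all tested genes. Hspa5, the HSP70 of this compartment, had a difference of 0.31 log2 units (limma adjusted p = 0.0608).

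**Figure D5:**
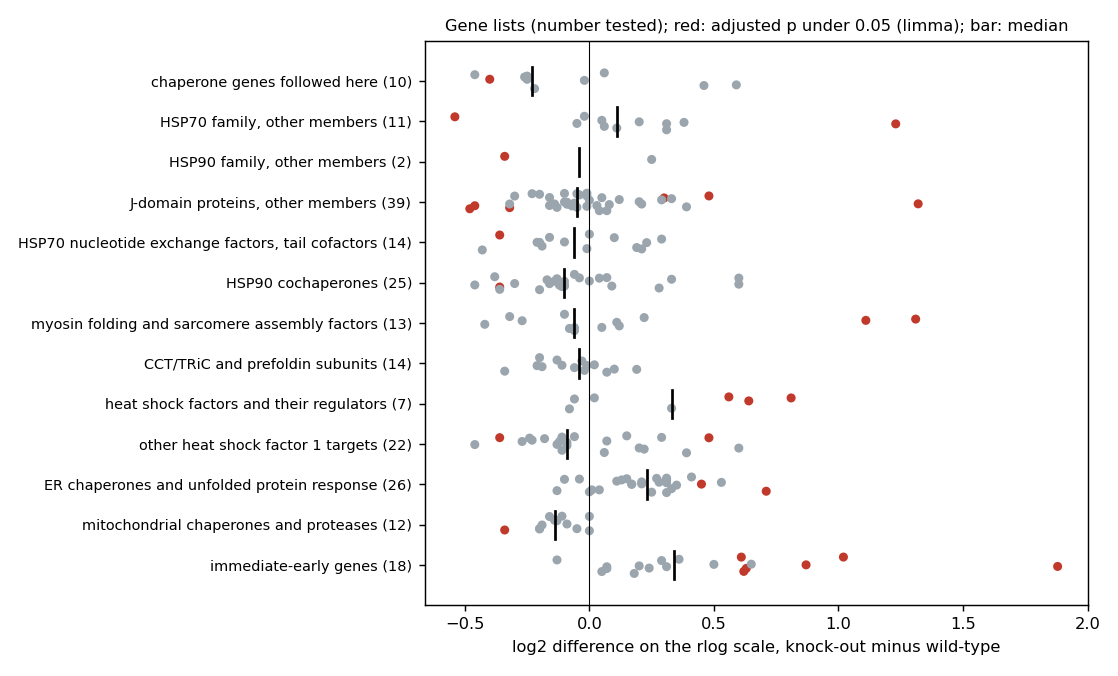
Each point is the log2 difference on the rlog scale (knock-out minus wild-type) of 1 tested gene, by list, red for an adjusted p under 0.05 (limma), and black bars mark list medians. Fhl1 (1.31), Hspa2 (1.23) and Hspb7 (1.11) are among the red points far to the right, while list medians stay between -0.23 and 0.34.

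Markers of other cell types were followed to describe the samples. Macrophage and adipocyte markers had no called gene among 12 and 7 tested and also 0 with an unadjusted p under 0.05 (limma), with medians of 0.08 and -0.02. Of 10 fibroblast markers 4 were higher and none was lower, of 10 slow fiber markers 3 were higher and 1 lower, and of 5 tested erythroid markers 2 were lower (limma, adjusted p under 0.05). The shares over all tested genes were 7.7% higher and 5.99% lower. Summed levels of slow fiber markers overlapped between the genotypes (49800 to 67000 in knock-out and 31600 to 68900 in wild-type mice). Among 8 Schwann cell and 6 satellite cell markers 1 each was higher. Their part in the chaperone values was not tested.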

How the data were processed

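The authors sequenced mRNA of calf muscle (gastrocnemius per the labels) of 5 desmin knock-out and 5 wild-type mice and deposited 1 table of rlog values (log2 scale) made with DESeq2. Per the labels, cutadapt 2.5, STAR 2.5.4a, Subread 1.6.1 with featureCounts and GRCm38 were used. The settings of the transformation and the strand setting of the counting are not given in the sources used here. The rlog shrinkage cannot be undone, and counts, depth and counting error are unknown. All 10 sample columns were used, mapped by their labels.

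Symbols (54165 of 54232 genes), positions and exon lengths came from GENCODE M21 (GRCm38), promoters from RefSeq (GRCm38.p6). The limit for testing was a mean of log2(10), and limma 3.58.1 (R 4.3.3) was run as a moderated test with a mean-variance trend (two-sided, Benjamini-Hochberg adjustment over 14289 genes). Within-mouse gaps between genes were tested with exact permutation tests over 252 splits (Python 3.11.15), adjusted over 6 pairs. The limma step was tested on made-up data with 200 planted changes of 1 log2 unit and the same spread in both genotypes. Of the planted genes 90% were recovered, and 3.74% of the calls were not planted. Smaller changes and a wider spread among wild-type mice were not covered by that check.

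The members and lists were chosen with earlier results of these data known. Named were the 10 genes, Des, Unc45a, in each chaperone or stress list the 4 called genes of lowest adjusted p, and the 3 genes most like Hspa1b, Hspa8, Hsp90aa1 and Unc45b. 1 gene is not reported here. Genes outside this rule were named after their values were seen. Ddit3 has 2 identifiers, of which the one with the higher level was used. The alternatives were testing all genes or those above log2(50), centring on medians, normalizing by quantiles, weighting samples, using 1 prior variance for all genes, blocking on replicate number, omitting each mouse in turn and an adjusted p under 0.01.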

Additional observations from a re-analysis of the deposited data

Results flagged for a closer look

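In 32 groups of 5 mice (each genotype for 10 genes and 6 gaps between genes), 3 held a single mouse that stood off from the rest by Dixon's criterion. By chance about 1 in 20 groups, here 1.6, would do so. Wild-type mouse 3 had an Hsf1 value of 11.62, far above the other wild-type mice. It also had the lowest wild-type gap between Hsph1 and Hspa8, -3.50, and desmin knock-out mouse 3 had the highest knock-out gap between these genes, -2.86.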

How the results depend on the processing

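Of 17 alternatives per gene, those below changed a call, a direction or a count. The cause was not tested. Sample weights were lowest for wild-type mice 3 and 4 (0.1 and 0.275) and highest for desmin knock-out mice 4 and 5 (4.21 and 3.22). With them, differences (log2 units) were -0.03 for Hspa1b and -0.13 for Dnaja1, both with reversed sign. They were -0.56 for Hsp90aa1, -0.35 for Hsph1, -0.43 for Dnajb1 and -0.23 for Hsf1, which all passed. In this setting 5 of the 10 genes, 49 genes of the chaperone lists and 4220 of all tested genes passed. Quantile normalization gave 0.11 for Hsp90ab1 and -0.30 for Unc45b, and 0 of the 10 genes passed (limma, adjusted p under 0.05). In the analysis reported, 1 of the 10 passed that limit and 3 had an unadjusted p under 0.05. At an adjusted p under 0.01 the counts were 0, 8 and 994. Leaving out 1 mouse at a time, the range was -0.09 to 0.03 for Hsp90ab1, -0.35 to -0.19 for Hsph1, -0.03 to 0.17 for Dnaja1, -0.52 to -0.26 for Hsf1 and -0.47 to -0.34 for Unc45b. For the gaps it was -0.38 to -0.28 for Unc45b and Unc45a, -0.12 to 0.03 for Hsph1 and Hspa8 and -0.38 to -0.21 for Dnajb1 and Dnaja1. Counts ranged from 0 to 2 of the 10 genes and from 14 to 32 genes of the lists, the highest without wild-type mouse 3. Mice of both genotypes share replicate numbers, but their deviations did not pair (r from -0.22 to 0.067, and no mouse was closest to its own number). With the replicate number as a block, 1579 genes passed, Unc45b among them (-0.40, limma adjusted p = 0.043), and the gap between Unc45b and Unc45a stayed at -0.34 (exact sign-flip test, adjusted p = 0.188). That test over 5 pairs cannot give a p below 0.0625, so it says nothing about the stability of the gap.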
